A study of Sus scrofa with 10 samples.

Results

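The genes described here are 10 genes of lipid droplets and fatty acid handling: PLIN2, PLIN3, DGAT1, DGAT2, PNPLA2, LIPE, CPT1A, FABP3, FABP5 and CD36. They were chosen by name, not by a rule on their measured values, from tables of 24358 genes and 47421 isoforms. Earlier results of these data were known at that point. The gene table names 9 of them. The row of CD36 carries only its Ensembl identifier (ENSSSCG00000015405) as its name, and it was taken as CD36 because its description and NCBI gene accession say so. Each symbol had 1 row, and the 10 genes have 27 listed isoforms.

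The RNA came from pig morulae, embryos of compacting cells shortly before a blastocyst cavity appears. The groups were DDB1_KD and NC, with 5 libraries each. DDB1_KD morulae grew from matured oocytes injected with small interfering RNA (siRNA) against DDB1, and NC morulae from oocytes that received a non-specific siRNA. Oocytes of both groups were then activated parthenogenetically, that is without sperm, so all embryos carried maternal genomes alone. A knockdown by siRNA leaves part of the transcript. DDB1, the adaptor of CUL4 ubiquitin ligases, averaged 1.27 ± 0.227 FPKM over the DDB1_KD libraries, against 3.37 ± 0.708 FPKM in NC (± SD over 5 libraries each), with no overlap between the groups. Groups did not overlap for 0.413% of all genes tested, and for none of the 6 tested lipid genes. FPKM scales fragments to transcript length and to the library's size, so levels can be compared between genes. For a gene with several isoforms the level depends on the length used.

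Library totals ran from 32466912 to 50911295 estimated counts. Genes of the mitochondrial chromosome took 12.2% to 24.4% of the counts in DDB1_KD (highest in replicate 5). In NC they took 8.58% to 18.4% (lowest in replicate 1). The part of this share in the levels of the lipid genes was not tested. All 13 morula and lineage markers examined were above 1 FPKM on average, among them POU5F1, at 27.8 to 119 FPKM in DDB1_KD and 52.3 to 123 FPKM in NC. Of the 11 cumulus cell markers, 8 fibroblast markers and 8 adipocyte markers found among the listed genes, none reached that level. The adipocyte markers in the table summed to 0.379 to 1.45 FPKM in DDB1_KD and 0.295 to 1.73 FPKM in NC, and the adipocyte genes FABP4 and LEP had 0 counts throughout (a count of 0 allows up to 3). Of the 8 blood cell markers, CD68, CD14 and HBB were above 1 FPKM. The blood list summed to 2.97 to 8.40 FPKM in DDB1_KD and 2.60 to 12.7 FPKM in NC. The libraries are bulk RNA, so fewer cells of a kind and less RNA per cell cannot be told apart. The labels do not tell whether libraries of 1 group derive from separate cultures. A p-value therefore reflects the spread of these libraries, which may be technical.

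Cells store neutral lipid as triglycerides and sterol esters in droplets bounded by a phospholipid monolayer and coated by perilipins. DGAT enzymes make the triglyceride, lipases such as PNPLA2 and LIPE release fatty acids from it, binding proteins carry the fatty acids through the cytosol, and CPT1A admits them to the mitochondrion for oxidation. Pig oocytes and early embryos are rich in such droplets and look dark for that reason.

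The levels of the 10 genes spanned a wide range. FABP3 had the highest level, with a mean of 1630 FPKM over the 10 libraries. PLIN2 at 213 FPKM and FABP5 at 159 FPKM followed. PNPLA2 (6.23 FPKM), CPT1A (6.02 FPKM) and CD36 (3.19 FPKM) formed a middle tier. DGAT1 (0.614 FPKM), DGAT2 (0.375 FPKM), PLIN3 (0.280 FPKM) and LIPE (0.0615 FPKM) were low. Some neighbours in this order changed places from library to library: PLIN2 was above FABP5 in 7 of 10 libraries, PNPLA2 above CPT1A in 6 and CD36 above DGAT1 in 6. FABP3 was above PLIN2 in 10 of 10, and FABP5 above PNPLA2 in 10 of 10. Summed over its isoforms, CPT1A averaged 9.12 FPKM in DDB1_KD and 7.92 FPKM in NC, above PNPLA2 at 5.05 and 7.40 FPKM. The order of PNPLA2 and CPT1A therefore depends on the scale. Genes with a mean of at least 1 FPKM were tested, 8476 genes in all, and 6 of the 10 were among them.

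**Figure D1:**
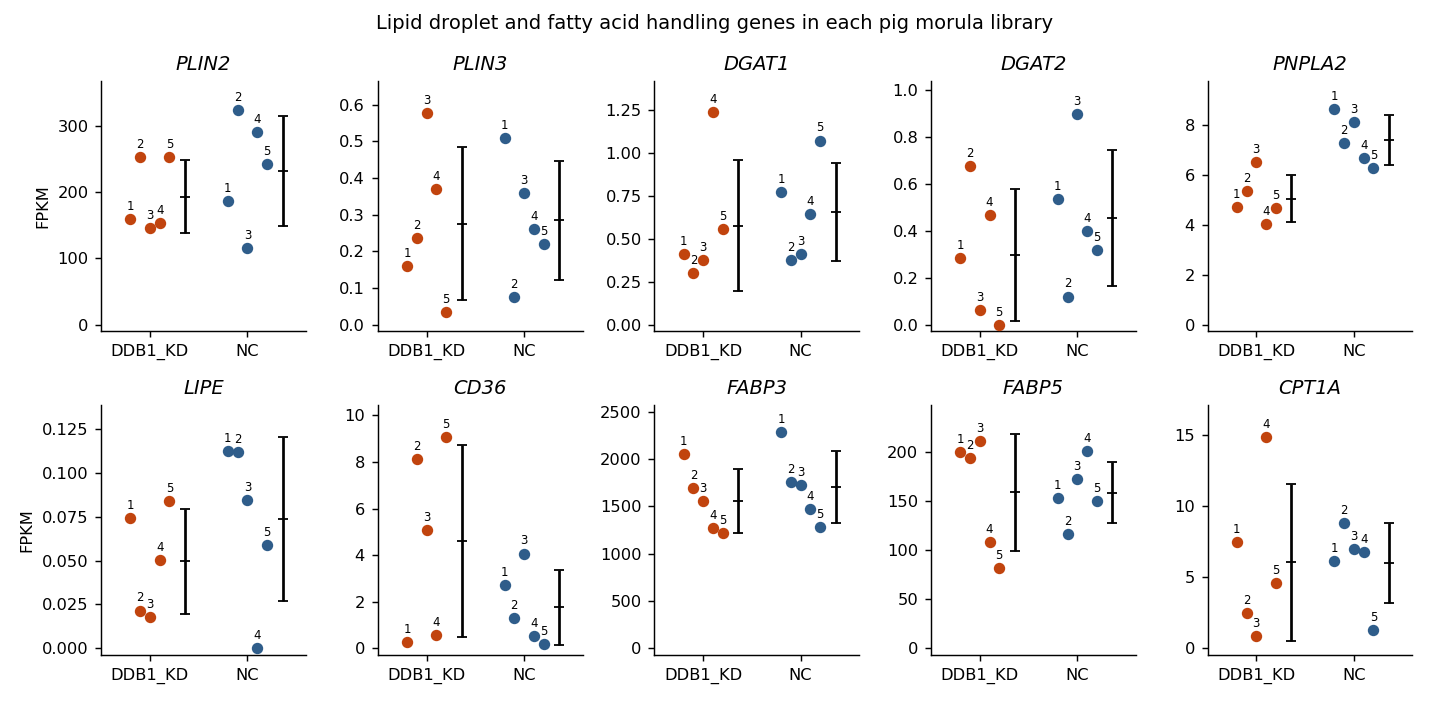
FPKM of each gene in every library, on linear axes from 0, with DDB1_KD libraries left of NC libraries. Small digits are replicate numbers, the dash and bar to the right of each group are the mean and SD (n = 5). The PNPLA2 values of DDB1_KD lie mostly below those of NC, and the CD36 values of DDB1_KD fall into 3 high and 2 low libraries.

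The groups were compared by edgeR's quasi-likelihood test, with p-values adjusted over all 8476 genes (Benjamini-Hochberg) and a threshold of 0.05. Of the 6 tested, 0 passed, as did 0% of all genes tested. DDB1 itself did not pass, at an adjusted p of 0.977 by edgeR, so a gene that did not pass may still differ. At an unadjusted p under 0.05 there was 1 of 6, PNPLA2, against 2.89% of all genes tested, made up of 1.76% higher and 1.13% lower in DDB1_KD. By DESeq2 and by limma, too, 0 of the 6 passed. DESeq2 called 2 genes (0.0236% of those tested), DDB1 and YAP1, and 4.16% of genes had an unadjusted p under 0.05. limma called 0 of 8476 genes, and 273 (3.22%) had an unadjusted p under 0.05. Of the 6 genes 2 had a higher fitted value in DDB1_KD and 4 a lower one, with a median log2 fold change of -0.09. Among all genes tested 4240 were higher and 4236 lower, with a median of 0.00.

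PLIN2 encodes perilipin 2, the coat protein of droplets in most cells outside adipose tissue. The gene (ENSSSCG00000035863) is at chr1:203683875-203713121 (plus strand, susScr11 build) and has a single listed isoform with 9 exons. PLIN2 stood at 160, 254, 147, 154 and 253 FPKM in DDB1_KD replicates 1 to 5, and 187, 325, 116, 291 and 243 FPKM in NC replicates 1 to 5. The groups overlapped: all 5 DDB1_KD values lay within the NC range, and replicates 2 and 5 of DDB1_KD stood above the other 3. The log2 fold change was -0.26 (SE 0.30, 95% interval -0.91 to 0.38), with an adjusted p of 0.977. PLIN2 ranked between 260 and 581 among all listed genes by FPKM. PLIN3, the other perilipin of the set and an exchangeable coat protein that also circulates in the cytosol, had no more than 0.577 FPKM in DDB1_KD and 0.510 FPKM in NC. Its counts were 8 to 120 in DDB1_KD and 16 to 87 in NC.

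DGAT1 and DGAT2 are unrelated enzymes that both join a fatty acid to diacylglycerol, the last step of triglyceride synthesis. DGAT1 had 84 to 269 counts in DDB1_KD and 93 to 342 counts in NC. DDB1_KD replicate 4 was highest, at 1.24 FPKM, against 0.299 to 0.556 FPKM in the other 4 DDB1_KD libraries and 0.375 to 1.07 FPKM in NC. DGAT1 overlaps HSF1, a heat shock factor gene of the opposite strand. No source used here says that strand was used in counting, so reads from the stretch that both genes cover could be given to either gene. HSF1, too, was highest in DDB1_KD replicate 4, at 9.91 FPKM, against 0.700 to 1.71 FPKM in the other 4 DDB1_KD libraries and 0.985 to 5.22 FPKM in NC, and its part in the DGAT1 values was not tested. DGAT2 had 0 to 45 counts in DDB1_KD and 8 to 48 counts in NC, and the 0 in DDB1_KD replicate 5 allows up to 3 counts. Both genes were below the 1 FPKM limit. In a fit of 13668 genes with the limit lowered to 0.1 FPKM, the log2 fold change was -0.21 for DGAT1 (SE 0.46), -0.63 for DGAT2 (SE 1.05) and -0.05 for PLIN3 (SE 0.73). edgeR's adjusted p was 0.996 for DGAT1, 0.996 for DGAT2 and 0.998 for PLIN3.

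PNPLA2 encodes adipose triglyceride lipase, which takes the first fatty acid from a stored triglyceride. The gene (ENSSSCG00000012841; chr2:513062-518182, plus strand) has a single listed isoform with 9 exons. PNPLA2 stood at 4.72, 5.34, 6.51, 4.01 and 4.68 FPKM in DDB1_KD replicates 1 to 5, and 8.65, 7.28, 8.13, 6.69 and 6.26 FPKM in NC replicates 1 to 5. Of the 5 DDB1_KD libraries, 4 lay below every NC library, and only DDB1_KD replicate 3 reached above the lowest NC value. Such a pattern, at least 4 of 5 below the lowest NC library, was found in 2.47% of all genes tested.

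The mean of PNPLA2 was 5.05 ± 0.939 FPKM over the DDB1_KD libraries, against 7.40 ± 0.987 FPKM in NC (± SD over 5 libraries each). The fitted log2 fold change was -0.53 (SE 0.24, 95% interval -1.06 to -0.0058), or 69.2% of the NC level. Its unadjusted p was 0.0479 and its adjusted p by edgeR was 0.977, so it did not pass. The unadjusted p was not stable: it was 0.05 or more in 8 of 10 fits with 1 library left out (0.0232 without DDB1_KD replicate 3, up to 0.112 without NC replicate 1). It was 0.0570 with the RLE size factors of DESeq2 in edgeR, 0.0576 with no filter and 0.0677 with the replicate block. Other edgeR fits gave 0.0434 with the limit at 0.1 FPKM and 0.0383 with total-count scaling. With the maternal level (defined below) as a covariate, edgeR gave 0.0271. DESeq2 gave 0.0389, and limma 0.0204 and 0.0173 with pseudocounts of 1 and 0.1. Leaving out 1 library gave log2 fold changes between -0.65 (DDB1_KD replicate 3 left out) and -0.43 (DDB1_KD replicate 4 left out). PNPLA2 was the least variable of the 6 genes, with a pooled SD of 0.28 log2 CPM within groups. CPM scales counts to the library total. Part of PNPLA2 overlaps CD151 on the same strand, so shared reads could be given to either gene. CD151, a tetraspanin gene, averaged 0.531 FPKM in DDB1_KD and 1.49 FPKM in NC (log2 fold change -1.58, SE 0.70, unadjusted p 0.0438 by edgeR), and was highest of the DDB1_KD libraries in replicate 4, at 1.80 FPKM. Its part in the PNPLA2 values was not tested.

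LIPE, the hormone-sensitive lipase that acts after PNPLA2 in adipose tissue, was close to the detection limit. It had 4 to 17 counts in DDB1_KD and 0 to 20 counts in NC (the 0 is NC replicate 4 and allows up to 3 counts), and no library exceeded 0.112 FPKM. LIPE entered a fit with no filter alone, where its log2 fold change was -0.47 (SE 1.28). It overlaps 2 genes on the opposite strand that have no symbol.

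**Figure D2:**
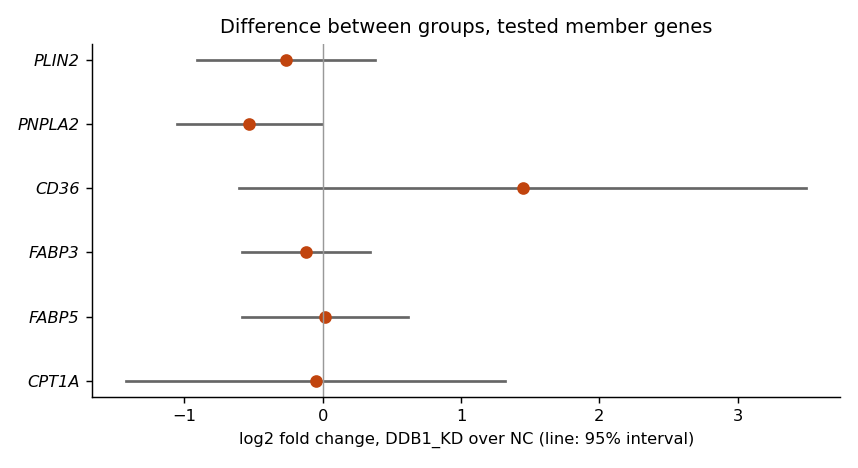
Log2 fold change of the 6 tested genes, DDB1_KD over NC, from edgeR (points) with 95% intervals (lines). Every interval except that of PNPLA2, which ends at -0.0058, crosses 0, and that of CD36 is the widest.

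FABP3, the fatty acid binding protein named for heart muscle, ranked 50 to 75 among all listed genes by FPKM. The gene (ENSSSCG00000036883) is at chr6:87941137-87951610 (minus strand) and has a single listed isoform with 5 exons. FABP3 had 2052, 1696, 1551, 1267 and 1216 FPKM in DDB1_KD replicates 1 to 5, and 2285, 1757, 1723, 1474 and 1280 FPKM in NC replicates 1 to 5. The groups overlapped over most of their range. The log2 fold change was -0.12 (SE 0.21, 95% interval -0.58 to 0.34). It was -0.24 without DDB1_KD replicate 1 and 0.011 without NC replicate 1. FABP3 took 0.353% to 0.601% of all counts in DDB1_KD and 0.376% to 0.669% in NC. It overlaps ZCCHC17 on the opposite strand, which averaged 59.1 FPKM in DDB1_KD and 54.5 FPKM in NC.

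FABP5, the epidermal fatty acid binding protein, is the second abundant member of that family here. The gene (ENSSSCG00000006153) is at chr4:55276621-55282908 (minus strand). It had 201, 194, 212, 109 and 82.0 FPKM in DDB1_KD replicates 1 to 5, and 153, 116, 173, 201 and 151 FPKM in NC replicates 1 to 5. The DDB1_KD libraries lay on both sides of the NC libraries, with replicates 4 and 5 below all of them and replicate 3 above all of them. The mean was 159 ± 59.7 FPKM over the DDB1_KD libraries, against 159 ± 31.3 FPKM in NC (± SD over 5 libraries each), and the log2 fold change was 0.02 (SE 0.28, 95% interval -0.58 to 0.62). The sign turned when 1 library was left out, between -0.12 without DDB1_KD replicate 3 and 0.18 without DDB1_KD replicate 5. In NC replicate 3 all 11929 counts were assigned to 1 isoform, ENSSSCT00000054753, and in the other 9 libraries all counts went to ENSSSCT00000006747.

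CD36, a membrane receptor that takes up long-chain fatty acids, differed most between libraries. The gene is at chr9:99684189-99782278 (minus strand). It had 0.264, 8.13, 5.08, 0.561 and 9.06 FPKM in DDB1_KD replicates 1 to 5, and 2.70, 1.30, 4.07, 0.526 and 0.177 FPKM in NC replicates 1 to 5. DDB1_KD replicates 2, 3 and 5 lay above every NC library, while DDB1_KD replicates 1 and 4 were among the 4 lowest of all. The ratio of the highest to the lowest library was 51.2. The mean was 4.62 ± 4.11 FPKM over the DDB1_KD libraries, against 1.75 ± 1.62 FPKM in NC (± SD over 5 libraries each). The log2 fold change was 1.45 (SE 0.95, 95% interval -0.60 to 3.50), with an adjusted p of 0.977 by edgeR. With 1 library left out it lay between 1.01, without DDB1_KD replicate 5, and 2.0, without NC replicate 3. Within groups the SD of CD36 was 2.12 log2 CPM, larger than that of 97.9% of all genes tested, whose median was 0.51.

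The level of CD36 followed the level of maternal oocyte transcripts across libraries. This level was the mean log2 CPM of 18 tested genes of an oocyte list. Many, such as GDF9, BMP15 and the zona pellucida genes, have RNA that is stored in the oocyte and cleared in the embryo. The list also holds CNOT7, CCNB1 and AURKA, which are not particular to the oocyte. The maternal level was 1.90, 5.44, 5.13, 3.52 and 5.10 in DDB1_KD replicates 1 to 5, and 3.58, 3.93, 4.77, 2.99 and 2.53 in NC replicates 1 to 5. The 4 libraries highest in CD36 (DDB1_KD replicates 5, 2 and 3 and NC replicate 3) were also the 4 highest in maternal transcripts. NC replicate 4, NC replicate 5 and DDB1_KD replicate 1 were the 3 lowest in both. This relation was examined after the CD36 values were seen.

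In an edgeR fit over all genes with group and maternal level as terms, CD36 rose by 1.58 log2 units (SE 0.24, 95% interval 1.05 to 2.10) for each log2 unit of maternal level. The adjusted p of edgeR's test was 0.0049, and 2.50% of all genes tested passed in this direction (2.71% in either), which the 18 listed genes themselves help to make up. When each library was left out in turn, the slope stayed between 1.49 and 2.08 and passed in 10 of 10 fits. Without DDB1_KD replicates 1 and 2, the libraries farthest from the median maternal level, it was 2.14 with an adjusted p of 0.0358. In this fit the difference between DDB1_KD and NC in CD36 was -0.045 (SE 0.46), where it was 1.45 without the maternal term. All 18 genes of the maternal level had a higher fitted value in DDB1_KD, though 0 passed. The maternal level thus went in part with group, and the fit cannot tell the share of each in CD36 apart. Within DDB1_KD, replicates 1 and 4 were the lowest in CD36 and in maternal level, and within NC, replicates 5 and 4 were the lowest and replicate 3 the highest in both. The order differed elsewhere. DDB1_KD replicate 5 was above replicate 2 in CD36 (9.06 against 8.13 FPKM) but below it in maternal level (5.10 against 5.44). NC replicate 1 was above replicate 2 in CD36 (2.70 against 1.30 FPKM) but below it in maternal level (3.58 against 3.93). No slope was fitted within a single group.

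The other 5 tested genes did not pass for this slope. The slope was 0.05 (SE 0.14) for PLIN2, 0.11 (SE 0.10) for PNPLA2, -0.33 (SE 0.32) for CPT1A, -0.04 (SE 0.10) for FABP3 and -0.04 (SE 0.12) for FABP5. The CPT1A slope was fitted to counts that depend on the assigned isoform, as described below, and not to values summed over isoforms. With the maternal term the log2 fold change of PNPLA2 was -0.61 (SE 0.24). CD36 and the maternal level were measured in the same libraries, and what the relation rests on was not tested.

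**Figure D3:**
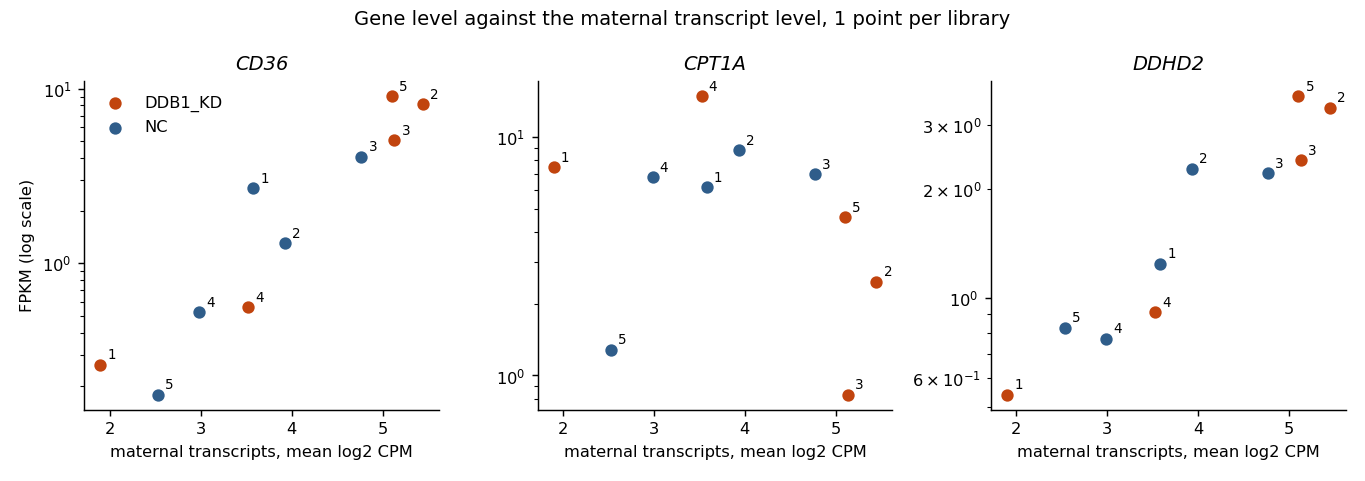
FPKM (log axes) of CD36, CPT1A and the lipase gene DDHD2 against the mean log2 CPM of 18 maternal transcripts, with 1 point for each library and its replicate number. CD36 and DDHD2 are low in DDB1_KD replicate 1 and high in DDB1_KD replicates 2, 3 and 5, whereas CPT1A is lowest in DDB1_KD replicate 3 and NC replicate 5.

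CPT1A encodes carnitine palmitoyltransferase 1A, the enzyme of the outer mitochondrial membrane that sets the pace of long-chain fatty acid oxidation. The gene (ENSSSCG00000012880) is at chr2:4233109-4296733 (plus strand). Its level was 7.48, 2.47, 0.830, 14.8 and 4.62 FPKM in DDB1_KD replicates 1 to 5, and 6.15, 8.77, 6.99, 6.76 and 1.28 FPKM in NC replicates 1 to 5. The DDB1_KD libraries held both the highest value, in replicate 4, and the lowest, in replicate 3, and 4 of the 5 NC libraries lay close together. The mean was 6.05 ± 5.51 FPKM over the DDB1_KD libraries, against 5.99 ± 2.81 FPKM in NC (± SD over 5 libraries each). The log2 fold change was -0.05 (SE 0.63, 95% interval -1.42 to 1.32), and its sign was not stable. It was -0.60 without DDB1_KD replicate 4 and 0.23 without DDB1_KD replicate 3. By its counts, which depend on the assigned isoform as described below, CPT1A varied more within groups than 93.5% of all genes tested. Neither this share nor the log2 fold change was computed for values summed over isoforms. Their means were 9.12 FPKM in DDB1_KD and 7.92 FPKM in NC.

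The isoform to which CPT1A counts were assigned changed from library to library. The longest isoform, ENSSSCT00000048877 (7242 bases, 18 exons), held all counts in DDB1_KD replicates 4 and 5 and in NC replicates 1, 2 and 3. ENSSSCT00000014079 (5600 bases, 19 exons) held all counts in DDB1_KD replicate 1 and NC replicate 4. The shortest, ENSSSCT00000014080 (2318 bases, 18 exons), held 880 of 916 counts in DDB1_KD replicate 2, 306 of 310 in DDB1_KD replicate 3 and 416 of 541 in NC replicate 5. Those 3 libraries are also the 3 with the lowest CPT1A level.

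The deposited counts are proportional to isoform FPKM times isoform length, so a library assigned to the short isoform has fewer counts at the same isoform FPKM. Summed over isoforms, CPT1A had 11.2, 8.75, 2.99, 17.3 and 5.37 FPKM in DDB1_KD replicates 1 to 5, and 7.15, 10.2, 8.12, 10.2 and 3.96 FPKM in NC replicates 1 to 5. On this scale the ratio of the highest to the lowest library was 5.78, against 17.9 on the scale of the gene table. DDB1_KD replicate 3 and NC replicate 5 remained the lowest on both scales, whereas DDB1_KD replicate 2 lay among the other libraries. For CD36 the corresponding ratio was 51.2 on both scales, and ENSSSCT00000053436 held most counts in 9 of 10 libraries. In DDB1_KD replicate 1 all 96 CD36 counts were assigned to ENSSSCT00000061570.

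**Figure D4:**
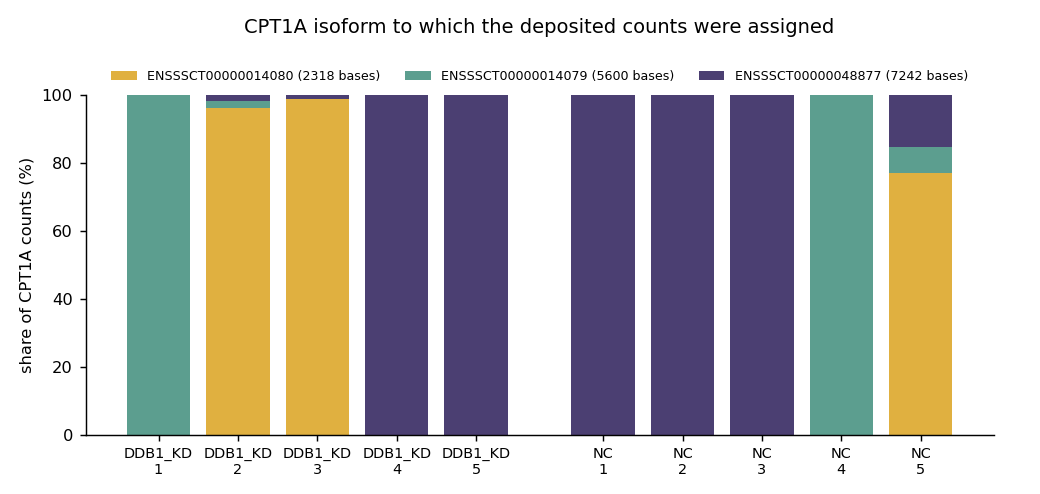
Share of the CPT1A counts (%) assigned to each of its 3 listed isoforms in every library, DDB1_KD left of NC. The shortest isoform dominates in DDB1_KD replicates 2 and 3 and NC replicate 5 alone.

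At the level of isoforms, 11250 were tested and 0 of the 9 isoforms of these genes passed edgeR's test, against 0.00889% of all isoforms. At an unadjusted p under 0.05 there was 1 of 9, against 3.36% of all isoforms: ENSSSCT00000054753 of FABP5 (p 0.0465 by edgeR), counted in NC replicate 3 alone. The isoform that did pass belongs to RARS2. The 9 comprise the single isoforms of PLIN2, PNPLA2 and FABP3, both of FABP5, all 3 of CPT1A and 1 of CD36.

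Other genes of lipid metabolism were described by 7 lists ordered by role, with 161 entries, of which 155 were in the table and 82 were tested. None of the 82 passed edgeR's test (0% of all genes tested passed), and 0 had an unadjusted p under 0.05, where 2.89% of all genes tested did. Their fitted values were higher in DDB1_KD for 35 and lower for 47. The lists were not tested as sets.

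Of 8 tested genes of droplet coat and assembly, 6 had a higher fitted value in DDB1_KD (median log2 fold change 0.23). ACSL3, which activates fatty acids at forming droplets, averaged 16.1 ± 14.5 FPKM over the DDB1_KD libraries, against 9.61 ± 4.43 FPKM in NC (± SD over 5 libraries each). Its log2 fold change of 0.75 was 0.15 without DDB1_KD replicate 2. RAB18, a small GTPase of the droplet surface, stood at a log2 fold change of 0.38 (SE 0.29), and HILPDA, an inhibitor of PNPLA2, at 0.48 (SE 0.42), or 0.060 without DDB1_KD replicate 2. The perilipin genes PLIN1, PLIN4 and PLIN5 were below the limit, each under 0.05 FPKM on average in both groups.

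Of 9 genes of triglyceride and sterol ester synthesis, 3 were higher and 6 lower (median -0.26). GPAT3, which starts the pathway by acylating glycerol phosphate, stood at a log2 fold change of -0.58 (SE 0.38), AGPAT5, an acyltransferase, at -0.42 (SE 0.30) and LPIN2, a phosphatidate phosphatase, at 0.40 (SE 0.30). Of 8 lipolysis genes 3 were higher and 5 lower (median -0.02). FAF2, a ubiquitin-domain protein of the endoplasmic reticulum and droplets, stood at 0.47 (SE 0.29), the monoglyceride lipase gene MGLL at -0.33 (SE 0.43) and DDHD2, a triglyceride lipase known from brain, at 0.59 (SE 0.54).

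DDHD2 was the only one of the 82 genes to pass for the slope on the maternal level. It had 0.539, 3.35, 2.40, 0.910 and 3.61 FPKM in DDB1_KD replicates 1 to 5, and 1.24, 2.27, 2.21, 0.770 and 0.825 FPKM in NC replicates 1 to 5. As for CD36, DDB1_KD replicate 1 was low and DDB1_KD replicates 2, 3 and 5 were the highest of all libraries. The slope was 0.80 (SE 0.14) per log2 unit of maternal level, with an adjusted p of 0.0107 by edgeR. It passed in 10 of 10 fits with 1 library left out (0.75 to 0.95), but not without both DDB1_KD replicates 1 and 2 (0.97, adjusted p = 0.0794). The isoforms to which DDHD2 counts were assigned were not examined. Over the 7 lists, 1 of 82 genes passed upward and 0 downward, against 2.50% and 0.212% of all genes tested.

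Of 6 tested genes of uptake, binding and activation, 2 were higher and 4 lower (median -0.32). FABP1, the liver binding protein, averaged 12.5 ± 10.7 FPKM over the DDB1_KD libraries, against 19.3 ± 8.81 FPKM in NC (± SD over 5 libraries each; log2 fold change -0.68, SE 0.69). It was -1.19 without DDB1_KD replicate 2 and -0.36 without DDB1_KD replicate 5. DBI, the acyl-CoA binding protein, stood at a log2 fold change of -0.35 (SE 0.28) and SLC27A4, a fatty acid transport protein, at -0.58 (SE 0.51).

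Of 25 genes of fatty acid oxidation, 11 were higher and 14 lower (median -0.01). HSD17B4, an enzyme of peroxisomal fatty acid oxidation, averaged 4.93 ± 0.878 FPKM over the DDB1_KD libraries, against 6.48 ± 0.682 FPKM in NC (± SD over 5 libraries each). Its log2 fold change was -0.39 (SE 0.20, unadjusted p 0.0789 by edgeR). SLC25A20, the carrier that brings the product of CPT1A across the inner mitochondrial membrane, had a log2 fold change of 0.49 (SE 0.33).

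Of 16 genes of synthesis, elongation and desaturation, 7 were higher and 9 lower (median -0.11). HACD2 and HACD3, dehydratases of the elongation cycle, had log2 fold changes of 0.70 (SE 0.35) and 0.38 (SE 0.22), and ELOVL2, an elongase of polyunsaturated fatty acids, one of 0.57 (SE 0.36). Of 10 transcriptional regulators, 3 were higher and 7 lower (median -0.17). NR1H2, a liver X receptor, stood at -0.57 (SE 0.34), INSIG2, which holds sterol regulatory factors in the endoplasmic reticulum, at 0.48 (SE 0.30), and MLXIP, a glucose-sensing factor, at -0.43 (SE 0.40).

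**Figure D5:**
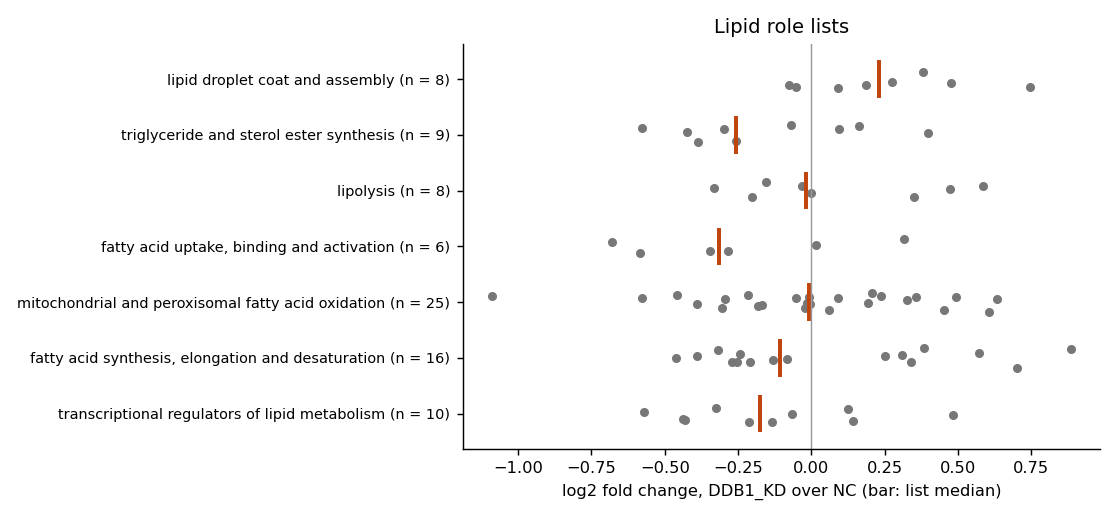
Log2 fold change (DDB1_KD over NC) of the 82 tested genes of the 7 lists, with 1 grey point per gene and a bar at each list's median. The medians lie between -0.32 for uptake, binding and activation and 0.23 for droplet coat and assembly, and in each list genes lie on both sides of 0.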

How the data were processed

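The deposited tables give FPKM and estimated counts for each gene and isoform in 10 libraries, per the file headers. The submitters' processing notes name the build susScr11 and, among tools, StringTie, HISAT2, fastp, edgeR, HOMER and ChIPseeker. They do not say which tool gave which value. The deposited estimated counts are whole numbers, gene counts equal the sum of isoform counts for 24358 of 24358 genes, and 100% of isoform counts above 0 lay within 1.5 counts plus 0.5% of the deposited FPKM times length times 1 constant. Their sampling error may not be that of read counts. FPKM of 0.0001, deposited where the count is 0, was read as 0. The deposited columns spell DDB1_KD as DBB1.

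Symbols came from the table for 17451 genes, Ensembl names for 951 and RefSeq (Sscrofa11.1) for 2152. Genes or isoforms with a mean of at least 1 FPKM were tested with edgeR 4.0.16 in R 4.3.3 (glmQLFit, glmQLFTest, TMM, group alone, Benjamini-Hochberg over all tested). The SE is the unshrunken coefficient over the root of F. limma 3.58.1 (log2(FPKM + 1)) and DESeq2 1.42.0 were alternatives, beside scaling, filters, the replicate block, single libraries left out and, added later, total-count scaling and the maternal level as a covariate. The maternal level used log2 CPM with a prior count of 2. The fits were tested on simulated data, with counts drawn independently for each gene and library and not dependent on an assigned isoform. That test does not cover counts that depend on the isoform. Python 3.11.15, pandas 2.3.3 and matplotlib 3.10.9 were used. The limit set by a count of 0 covers counting error alone.

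Named are DDB1, the 10 genes, and the 3 tested genes of each list with the smallest unadjusted p, beside genes that pass. Of these, 1 gene is not reported here. CD151, HSF1, ZCCHC17 and RARS2 were named after their values were seen. The genes and lists were chosen with earlier results of these data known.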

Additional observations from a re-analysis of the deposited data

Results flagged for a closer look

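DGAT1 in DDB1_KD replicate 4, at 1.24 FPKM, stood apart from the other 4 DDB1_KD libraries by more than Dixon's limit for 5 values (0.71 of the range). This was the only such library among 64 groups of values examined for 32 genes, and chance alone gives about 1 in 20, or 3.2 groups. HSF1 and CD151, also highest of the DDB1_KD libraries in replicate 4, at 9.91 and 1.80 FPKM, were not among the 32 genes.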

How the results depend on the processing

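For genes, the count passing was 0 under every alternative except DESeq2, where it was 2. For isoforms it was 1, and 0 with a filter of 0.1 FPKM, 0 with the replicate block, and 0 to 2 with 1 library left out. None of the 10 genes passed under any alternative run, and with 1 library left out the list medians turned sign for lipolysis (-0.11 to 0.12) and oxidation (-0.13 to 0.055) alone. Fitted values turned sign for CPT1A with total-count scaling (0.017) and with 1 library left out (-0.60 to 0.23), and for FABP3 with 1 library left out (-0.24 to 0.011). FABP5 turned with the replicate block (-0.054), with limma at a pseudocount of 1 (-0.068) or 0.1 (-0.069) and with 1 library left out (-0.12 to 0.18). CD36 and DDHD2 turned with the maternal level as a covariate (-0.045 and -0.15). The cause was not tested. DDB1 passed DESeq2 (adjusted p = 0.0069) but not edgeR.

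The labels do not say that same-numbered libraries are pairs, so the replicate block was an alternative alone. Deviations of same-numbered libraries correlated at r from -0.14 to 0.35 over genes. Of 5 DDB1_KD libraries 1, replicate 3, matched its own number best. A correlation over all genes does not settle whether libraries were paired. Under the block PNPLA2 stood at -0.55 and CD36 at 0.96, and it changed no call by adjusted p among the genes, while the number of the 6 genes with an unadjusted p under 0.05 was 0, against 1 without it. DGAT1, DGAT2, PLIN3 and LIPE have at most 342 counts in a library, and for them this depth and spread show large differences alone.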

Other observations

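The proportions of some of these genes were compared within libraries. In FPKM, FABP3 over FABP5 ran between 7.33 and 14.8 (median 10.2) in DDB1_KD, and between 7.32 and 15.1 (median 9.97) in NC. PLIN2 over PNPLA2 ran between 22.5 and 54.1 in DDB1_KD, and between 14.2 and 44.6 in NC. These ratios were not tested.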
